A study of Mus musculus with 9 samples.

Results

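Open chromatin of Stat6_KO and Il21e_KO naive CD4+ T cells, helper cells at rest before any encounter with antigen, was compared directly, with 3 libraries of each genotype. These 6 libraries were taken from the 9 of the study by their labelled genotype; the other 3 are WT libraries, which entered no test here and are given for orientation. The assay was ATAC-seq, in which a transposase cuts accessible DNA and marks it for sequencing, so that reads pile up at open promoters and enhancers. Stat6_KO cells came from untreated C57BL/6 mice with a Stat6 knockout, Il21e_KO cells from untreated C57BL/6 mice with an allele named Il21e KO in the genotype field and IL21KO in the titles, and WT cells from untreated C57BL/6 mice. The labels do not say which DNA either allele removes, how old the mice were, or whether the libraries of a genotype came from separate mice; the p-values therefore measure the spread between these libraries, which may be technical. Naive cells were obtained by negative selection with a kit.

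STAT6 is the transcription factor activated by the receptors for interleukin-4 and interleukin-13. Bound IL-4 receptor recruits Janus kinases, these phosphorylate STAT6, and the STAT6 dimer binds DNA and turns on the Th2 programme of helper T cells. IL-21 is made mainly by activated and follicular helper T cells; its receptor shares the common gamma chain, encoded by Il2rg, with the IL-4 receptor and signals mostly through STAT3. Naive cells make little of either cytokine.

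STAT dimers bind a palindrome whose arms are TTC and GAA, with 4 bases between them in the form preferred by STAT6 (TTCNNNNGAA) and 3 in the form shared by the other family members (TTCNNNGAA). Both forms read the same on both strands, and no hit of one overlapped a hit of the other in the sequences printed here. Among the 250 bases before each of 32817 RefSeq transcription start sites (GRCm38.p6), the first form was present in 5.85% and the second in 7.02%. The sequences shown are those of Stat6, the knocked-out gene, of Socs3, a feedback inhibitor of cytokine receptors whose promoter peak did not overlap between the genotypes, and of Mtg1, the gene with the smallest p at a promoter. All are written 5' to 3' on the strand of the gene, and capitals mark the STAT palindrome.
Stat6, chr10:127642736-127642985, plus strand: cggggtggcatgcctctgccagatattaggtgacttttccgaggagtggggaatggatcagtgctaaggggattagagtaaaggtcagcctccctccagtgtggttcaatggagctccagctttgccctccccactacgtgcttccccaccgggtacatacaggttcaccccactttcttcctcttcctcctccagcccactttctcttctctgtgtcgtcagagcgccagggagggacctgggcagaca
Socs3, chr11:117969367-117969616, minus strand: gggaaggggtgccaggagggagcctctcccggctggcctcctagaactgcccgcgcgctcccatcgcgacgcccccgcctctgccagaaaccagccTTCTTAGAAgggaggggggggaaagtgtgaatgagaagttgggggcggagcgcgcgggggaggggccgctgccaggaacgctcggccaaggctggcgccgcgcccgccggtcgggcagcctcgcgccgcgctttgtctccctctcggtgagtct
Mtg1, chr7:140137314-140137563, plus strand: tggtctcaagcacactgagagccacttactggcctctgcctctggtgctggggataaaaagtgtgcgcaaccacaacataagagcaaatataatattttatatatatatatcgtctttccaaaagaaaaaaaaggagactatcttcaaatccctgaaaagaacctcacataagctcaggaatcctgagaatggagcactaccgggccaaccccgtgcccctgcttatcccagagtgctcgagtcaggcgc
The match in Socs3, TTCTTAGAA, begins 154 bases before the start site, and neither form was found in the other printed windows. Of the 25 genes that the naming rule gives by a promoter peak and that are in the RefSeq table, Cd44 and Lef1 held the first form and Bcl6, Il7r and Socs3 the second. Some of these genes have more than 1 start site. Counted by start site, like the shares above, the first form was in 2 of 30 windows (6.67%) and the second in 4 of 30 (13.3%). A match of letters is a description and does not show binding.

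The Stat6_KO libraries held 1759775, 1698387 and 1634889 reads in the 115727 listed peaks, and the Il21e_KO libraries 1049460, 1586954 and 1802405. Values are CPM (counts scaled to a fixed total of reads in peaks), and 1 read was worth 0.555 to 0.953 CPM. Il21e_KO 1 stood apart from the other 5 libraries: it lacked any read in 27200 peaks (23.5%), against 3898 to 5954 peaks in the others, and 42.7% of its reads lay in peaks at transcription start sites (TSS), against 31.6% to 33.3%. Across peaks it correlated with the other 5 at 0.877 on average, against 0.904 to 0.908 for each of them. Between the genotypes, reads in peaks gave p = 0.5, peaks without a read p = 0.5 and the TSS share p = 0.6 by exact 2-sided permutation tests (n = 3 each), where 0.1 is the smallest p possible. Because of this library, results are given with and without it.

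The alleles themselves came first, as a check of the labels. At Stat6 on chromosome 10, the promoter peak (chr10:127078755-127081311, mm9) held 113, 107 and 112 reads in Stat6_KO and 75, 108 and 113 in Il21e_KO, and its log2 fold change, Stat6_KO over Il21e_KO on the log2(CPM + 1) scale, was -0.05 ± 0.13 (SE). The difference was smaller than its standard error. A peak in exon 16 (chr10:127094700-127095673) held 41, 33 and 25 reads in Stat6_KO, against 2, 11 and 14 in Il21e_KO and 9, 12 and 17 in WT. Every Stat6_KO library lay above every other library there, at 19.3 ± 4.00 CPM in Stat6_KO and 5.53 ± 3.17 in Il21e_KO (SD, n = 3 each). The difference (1.77 ± 0.38) did not pass over all peaks (limma-trend FDR 0.862) and passed without Il21e_KO 1 (1.27, FDR 0.000384) and with libraries weighted by their quality (1.33, FDR 0.000200). A peak in exon 12 (chr10:127091973-127092691) had 5, 3 and 3 reads in Stat6_KO and 5, 15 and 13 in Il21e_KO, too few for the test with all 6 libraries. In CPM the groups did not overlap, at 2.15 ± 0.60 in Stat6_KO and 7.14 ± 2.34 in Il21e_KO (SD, n = 3 each), and without Il21e_KO 1 the peak did not pass (-1.57, FDR 0.415). Within 100 kb of Stat6, 12 of 35 listed peaks had enough reads to be tested, 0 passed by limma-trend and 2 had an unadjusted p under 0.05.

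At Il21 and its neighbour Il2, the T cell growth factor gene, on chromosome 3, 20 of 50 listed peaks within 100 kb were tested and 0 passed by limma-trend, with 0 at an unadjusted p under 0.05 (lowest 0.136). The 6 peaks at the TSS or in the introns of Il21 held at most 5 reads in any library, which is under the depth needed for a test. The Il2 promoter (chr3:37024505-37025635) held 29, 36 and 38 reads in Stat6_KO and 15, 30 and 40 in Il21e_KO (0.14 ± 0.22). No tested peak near Il21 lacked reads in the Il21e_KO libraries, and the Il21e allele left no loss visible in these peaks at this depth.

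Over the whole genome, few sites passed the test between Stat6_KO and Il21e_KO cells, and with all 6 libraries in limma-trend each of them was lower in Stat6_KO. Other fits also called higher peaks, as given below. Of 46460 tested peaks, 6 (0.0129%) passed a false discovery rate (FDR) of 0.05 by limma-trend, 6 lower and 0 higher in Stat6_KO. All 6 lay between genes, on chromosomes 11, 12 and 14, and 15431 of the 46460 tested peaks were intergenic. At an unadjusted p under 0.05 there were 1808 peaks (3.89%), of which 762 were lower (1.64%) and 1046 higher (2.25%), and 181 (0.39%) had p under 0.01. Both shares lie below their thresholds of 0.05 and 0.01, so these counts by themselves show no excess of low p. The 3 libraries of one genotype did not overlap those of the other at 5132 peaks (11%), lower in Stat6_KO at 2184 (4.7%) and higher at 2948 (6.35%). With 3 libraries against 3, labels set at random would separate a peak with a probability of about 0.1, and 11% is near that share. The number of calls by other tools was 11 with edgeR (0.0237%), 10 with DESeq2 (0.0215%) and 8 with limma-voom (0.0172%), each with 1 higher peak, near Fam71b. Leaving out Il21e_KO 2 or Il21e_KO 3, which left the outlying library with 1 partner, gave 0 calls, as did a pseudocount of 0.25.

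**Figure D1:**
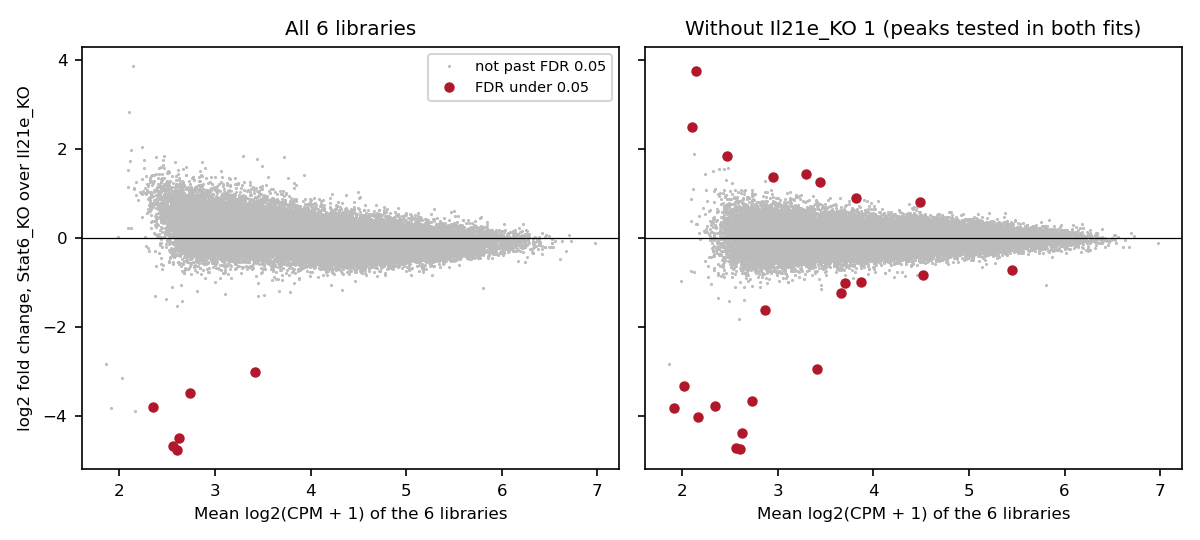
Each point is a tested peak, placed by its mean log2(CPM + 1) over the 6 libraries (x axis) and its log2 fold change, Stat6_KO over Il21e_KO (y axis); red points passed FDR 0.05. With all 6 libraries the 6 red points lie between -3.02 and -4.77, and without Il21e_KO 1 the cloud narrows and red points appear on both sides of 0.

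Of the 6 called peaks, 3 lay on chromosome 14, among them those with the 2 lowest log2 fold changes. A peak at chr14:53692207-53693198 held 1, 0 and 0 reads in Stat6_KO and 33, 50 and 53 in Il21e_KO. Its log2 fold change was -4.77 ± 0.41 (FDR 0.00205), and the ratio of summed reads, Il21e_KO over Stat6_KO, was 156 with an exact 95% counting interval of 27.5 to 6208. The next, at chr14:53697843-53699089, held 0, 1 and 0 reads in Stat6_KO and 28, 50 and 52 in Il21e_KO (-4.68 ± 0.42, FDR 0.00205). The third, past 11 further listed peaks, at chr14:53754287-53755104, held 1, 1 and 0 reads in Stat6_KO and 20, 24 and 37 in Il21e_KO (-3.82 ± 0.51, FDR 0.0483). In WT these peaks were split: WT 1 had 0, 1 and 2 reads in them, whereas WT 2 had 44, 53 and 35 and WT 3 had 49, 51 and 21. The low level was therefore shared by all Stat6_KO libraries and 1 WT library.

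On chromosome 11, a peak 9499 bases from the TSS of Scpep1os, a transcript from the strand opposite a carboxypeptidase gene (chr11:88756609-88757743), held 0, 2 and 0 reads in Stat6_KO and 35, 43 and 46 in Il21e_KO. It fell by 4.51 ± 0.44 on the log2 scale (FDR 0.00329), and the 3 WT libraries, with 36, 48 and 53 reads, lay with Il21e_KO. The Il12b peak, 216 kb from the gene for the p40 chain of IL-12 and IL-23 (chr11:43996386-43997422), held 0, 3 and 3 reads in Stat6_KO, against 17, 38 and 45 in Il21e_KO and 37, 38 and 36 in WT. It fell by 3.49 ± 0.46 (FDR 0.0483). On chromosome 12, a peak 56202 bases from Snx13, a sorting nexin of endosomes (chr12:35674659-35675659), was the called peak with the most reads left in the knockout: 10, 3 and 3 in Stat6_KO, against 34, 47 and 48 in Il21e_KO and 52, 38 and 44 in WT. It fell by 3.02 ± 0.33 (FDR 0.00801). The distances are from the nearest TSS that the authors' table lists and do not tie a peak to that gene.

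These calls had several limits. With limma-voom the Il12b peak did not pass (adjusted p = 0.148), nor did it with a mean of at least 10 CPM required (adjusted p = 0.2495) or without Stat6_KO 2 (adjusted p = 0.05304); its alternatives spanned 6.10e-16 to 0.860. All 6 were lost with a pseudocount of 0.25 or without Il21e_KO 2 or 3, although their log2 fold changes there were of similar or larger size (for the first chromosome 14 peak -6.39, -4.76 and -4.81, and for the Snx13 peak -3.35, -3.02 and -3.10). With the WT libraries added to the fit, the 3 chromosome 14 calls were lost (adjusted p from 0.104 to 0.205), where the WT libraries are split.

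**Figure D2:**
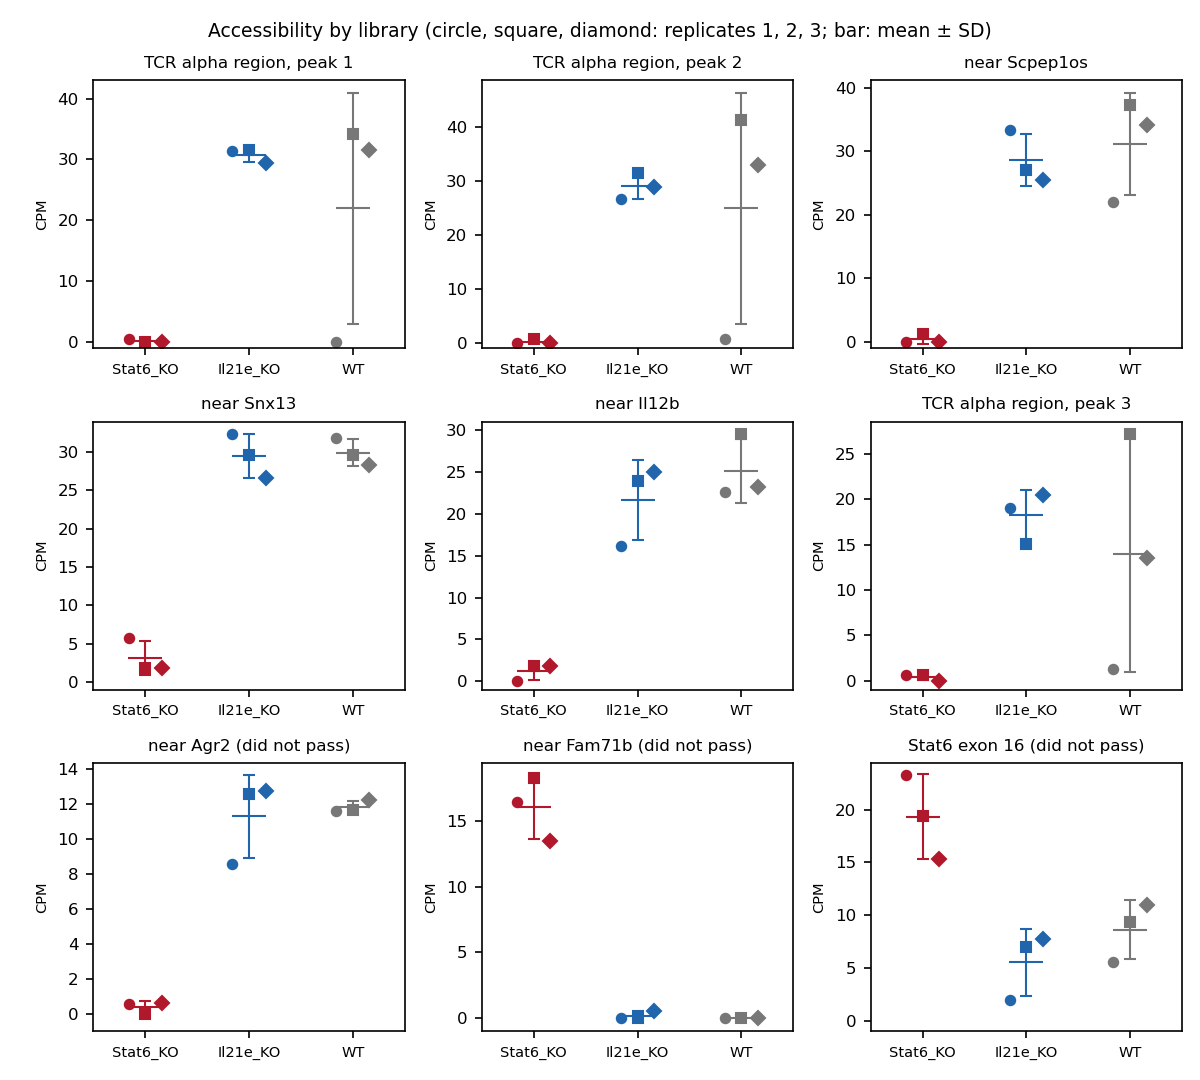
CPM of each library (y axis) at the 6 called peaks and at 3 peaks that did not pass, in Stat6_KO, Il21e_KO and WT from left to right; symbols are replicates 1 to 3 and bars the mean ± SD. Stat6_KO lies near 0 at the called peaks, among them WT 1 joins it at the 3 peaks of the T cell receptor alpha region, and outside Stat6_KO the Fam71b peak lies near 0.

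The chromosome 14 peaks belong to a longer stretch. Between Olfr1509 and Dad1, the listed genes on either side, RefSeq places variable and joining segments for the alpha chain of the T cell receptor, which developing T cells join by cutting out the DNA between them. There, 22 consecutive listed peaks over 285 kb (chr14:53659012-53944417) each held at most 2 reads in every Stat6_KO library; the ends of the stretch were set by that rule after the values were seen, so its level in Stat6_KO is a description. Summed over the 22 peaks, the libraries held 5, 6 and 2 reads in Stat6_KO, 150, 345 and 376 in Il21e_KO, and 6, 307 and 286 in WT. In CPM this was 2.53 ± 1.19 in Stat6_KO, 190 ± 40.7 in Il21e_KO and 142 ± 123 in WT (SD, n = 3 each). Since these peaks were chosen for low reads in Stat6_KO, no test is given for the sums. Of the 22 peaks, 5 had enough reads to be tested and 3 passed; all 5 passed without Il21e_KO 1, and 0 without Il21e_KO 2 or 3.

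The peaks on either side of the stretch, when summed, held reads in every library. The 5 listed peaks before the stretch summed to 54, 39 and 40 reads in Stat6_KO and 11, 41 and 33 in Il21e_KO, and the 5 after it to 82, 73 and 65 in Stat6_KO and 44, 77 and 76 in Il21e_KO. The ratios there, Il21e_KO over Stat6_KO, were 0.733 and 1.03, and 0 of their 5 tested peaks passed. Within the stretch, Il21e_KO 2 and Il21e_KO 3 had reads in all 22 peaks and Il21e_KO 1 in 17, whereas the Stat6_KO libraries had reads in 5, 5 and 2. Whether DNA, cells that carry it or its accessibility is missing cannot be told apart in these files.

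**Figure D3:**
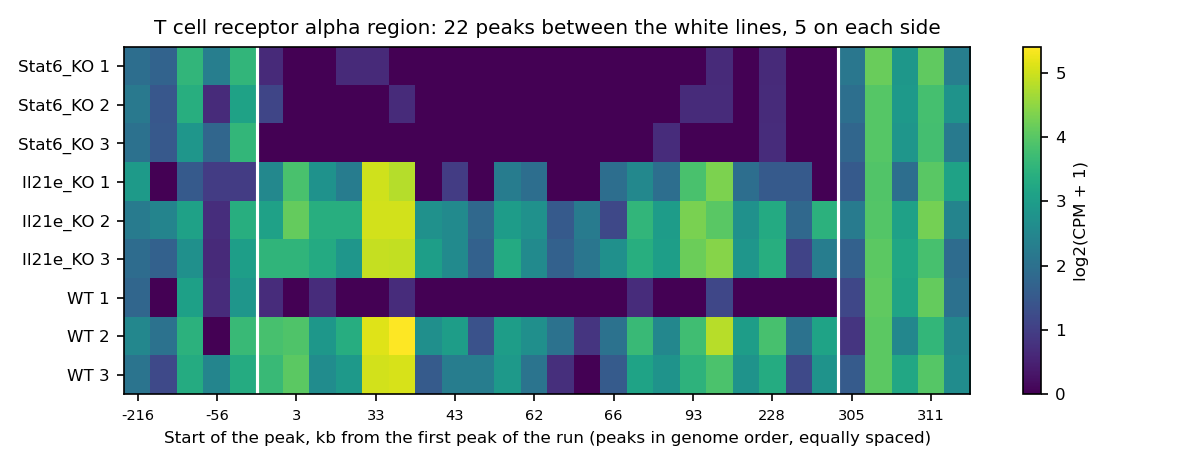
Colour gives log2(CPM + 1) of each library (rows, Stat6_KO at the top, then Il21e_KO and WT) at the 22 consecutive peaks of the T cell receptor alpha stretch, between the white lines, and at 5 peaks on each side; the x axis gives each peak's start in kb from the first. The 3 Stat6_KO rows and WT 1 are dark between the lines and like the other rows outside them.

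Peaks with small p were then counted by place. Of 521 windows of 5 Mb, the 5 with the most peaks at an unadjusted p under 0.01 held 23 of the 181 such peaks among 457 of the 46460 tested; these windows were picked for low p, so their count is a description. On chromosome 11 from 45 to 50 Mb, 6 of 140 tested peaks had p under 0.01 and all 6 were higher in Stat6_KO, with 0 passing. A peak 7838 bases from the Fam71b TSS (chr11:46226068-46226741) held 29, 31 and 22 reads in Stat6_KO, against 0, 0 and 1 in Il21e_KO and 0 in every WT library. The 6 other libraries thus held 1 read in all, and the ratio, Stat6_KO over Il21e_KO, was 71.5 (counting interval 12.5 to 2857), with a log2 fold change of 3.87 ± 0.61 (FDR 0.184). It passed with edgeR (adjusted p = 0.000262), DESeq2 (adjusted p = 0.00697) and limma-voom (adjusted p = 0.0142) and without Il21e_KO 1 (FDR 2.53e-11).

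A peak near Med7, a subunit of the Mediator complex, held 57, 62 and 42 reads in Stat6_KO and 11, 30 and 29 in Il21e_KO (1.03 ± 0.24, FDR 0.862; 0.80 without Il21e_KO 1, FDR 0.0238). The Fam71b promoter itself did not follow (-0.13 ± 0.19). The Il12b loss lies 2.22 Mb from that promoter and has the opposite sign.

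On chromosome 12 from 35 to 40 Mb, 5 of 37 tested peaks had p under 0.01, among them the called Snx13 peak. The Ahr promoter (chr12:36218657-36220089), held 54, 42 and 39 reads in Stat6_KO, against 53, 76 and 65 in Il21e_KO and 89, 64 and 68 in WT; AHR is a transcription factor that binds small ligands. In CPM no Stat6_KO library reached the level of any Il21e_KO library, at 26.4 ± 3.72 in Stat6_KO and 44.8 ± 7.69 in Il21e_KO (SD, n = 3 each; log2 fold change -0.73 ± 0.19, limma-trend FDR 0.862). The Ahr promoter did not pass without Il21e_KO 1 either (-0.64, FDR 0.123). An intergenic peak 231 kb from the Ahr TSS stood the other way (1.10 ± 0.43, FDR 0.862). Peaks 95461 and 76611 bases from Agr2, whose product folds secreted mucins, held 1, 0 and 1 reads each in Stat6_KO, against 9, 20 and 23 and 9, 13 and 17 in Il21e_KO (-3.16 ± 0.69 and -2.83 ± 0.80). The first passed without Il21e_KO 1 (FDR 0.00610) and with edgeR (adjusted p = 0.00245). An intron 3 peak of Ispd, a gene of dystroglycan glycosylation, stood the other way, with 13, 16 and 16 reads in Stat6_KO, against 1, 5 and 3 in Il21e_KO and 15, 11 and 13 in WT (1.82 ± 0.51). The Ispd peak did not pass by limma-trend with all 6 libraries (FDR 0.862) or without Il21e_KO 1 (1.56, FDR 0.0646). WT lay with Stat6_KO at this peak, and the lower reads were those of Il21e_KO, fewest in Il21e_KO 1.

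**Figure D4:**
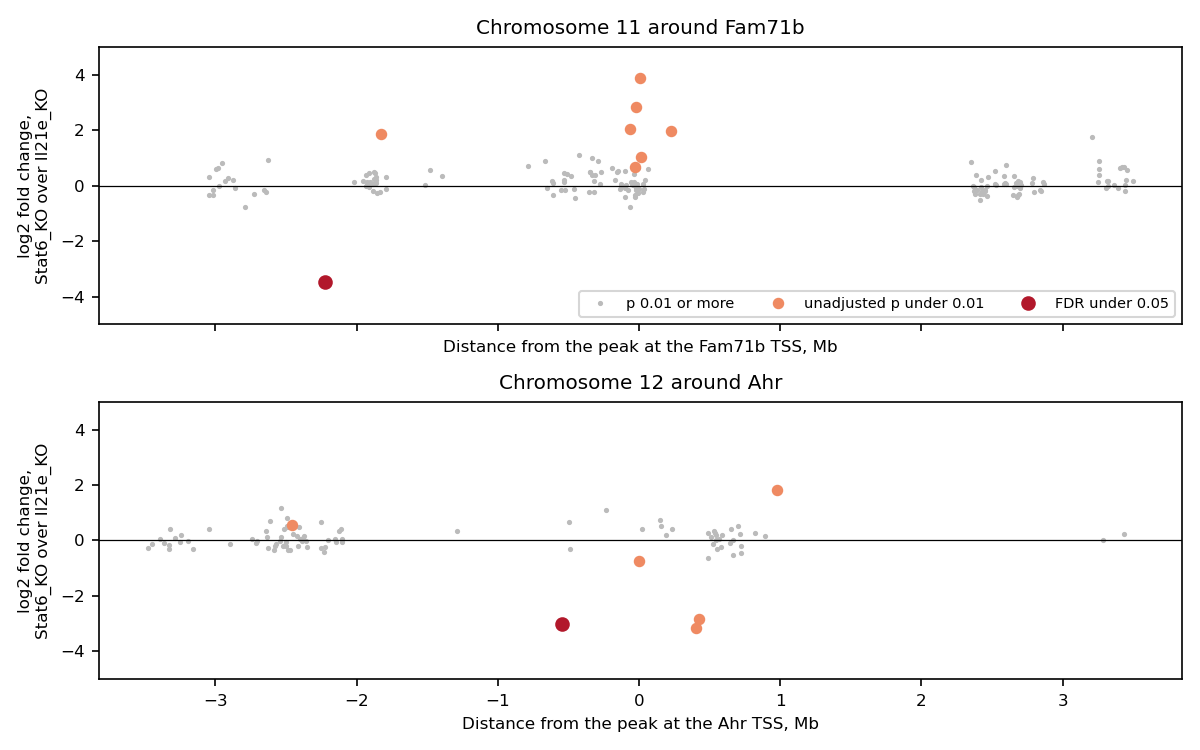
Log2 fold change, Stat6_KO over Il21e_KO, of each tested peak (y axis) by its distance in Mb from the peak at the TSS of Fam71b (top, chromosome 11) and Ahr (bottom, chromosome 12); orange marks unadjusted p under 0.01 and red FDR under 0.05. Orange points stand above 0 around Fam71b, with the called Il12b peak below 0 to the left, and the called Snx13 peak, the Ahr promoter and both Agr2 peaks stand below 0 around Ahr. The Ispd peak, in orange to their right, stands above 0.

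The other windows showed smaller differences of 1 sign. On chromosome 10 from 120 to 125 Mb, 4 of 106 tested peaks had p under 0.01, all in introns of Ppm1h, a protein phosphatase gene, and all lower in Stat6_KO. Their log2 fold changes ran from -1.19 ± 0.26 at intron 4 (9, 12 and 18 reads in Stat6_KO and 18, 27 and 37 in Il21e_KO) to -0.71 ± 0.23 at intron 2. At a further intron 2 peak, Stat6_KO held 29, 27 and 30 reads and Il21e_KO 26, 48 and 56; this peak and that of intron 4 passed without Il21e_KO 1 (FDR 0.0276 and 0.00610). On chromosome X from 165 to 170 Mb, 3 of 26 had p under 0.01, and all were lower in Stat6_KO: an intron 8 peak of the ubiquitin ligase gene Mid1 (-1.05 ± 0.24) and a pair next to it (-0.80 ± 0.24 and -0.77 ± 0.20). None of the chromosome X peaks passed with or without Il21e_KO 1.

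Among peaks that did not pass, those with the smallest p in Stat6_KO below Il21e_KO included the promoter of Mtg1, a GTPase of mitochondrial ribosome assembly (chr7:147323197-147324285, mm9). It held 24, 28 and 23 reads in Stat6_KO and 39, 42 and 49 in Il21e_KO, and the groups did not overlap (14.7 ± 1.54 CPM in Stat6_KO and 30.3 ± 5.98 in Il21e_KO; -0.98 ± 0.21, FDR 0.862). In WT it held 41, 27 and 33 reads, or 22.5 ± 2.28 CPM (SD, n = 3). An exon 7 peak of Rab3ip, an exchange factor for Rab GTPases, held 23, 20 and 20 reads in Stat6_KO and 48, 42 and 37 in Il21e_KO (-1.18 ± 0.26, FDR 0.862). At both peaks Il21e_KO 1 had the highest CPM, 37.2 at Mtg1 and 45.7 at Rab3ip. Without it neither passed by limma-trend (-0.83, FDR 0.0552 for Mtg1 and -0.87, FDR 0.0657 for Rab3ip). With libraries weighted by their quality both passed (-0.85, FDR 0.00907 and -0.89, FDR 0.00783). Higher in Stat6_KO, all at FDR 0.862, were peaks near or in Mtx2, of mitochondrial import (0.99 ± 0.23), the retromer gene Vps26a (1.25 ± 0.29), the ubiquitin ligase gene Rnf125 (1.01 ± 0.25), the exoribonuclease gene Dis3l2 (1.13 ± 0.28), Serp2, of the endoplasmic reticulum (1.02 ± 0.26), the diphthamide synthesis gene Dph5 (0.98 ± 0.25) and the glycerolipid synthesis gene Gpat4 (1.14 ± 0.29). At each of these 7 peaks Il21e_KO 1 held the fewest reads of the 6 libraries, between 4 and 7, and only the Vps26a peak passed without that library (0.91, FDR 0.0392).

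Sites present in one genotype and nearly absent in the other were rare. Of the 115727 listed peaks, 7 held at most 3 reads in every Stat6_KO library and at least 10 in every Il21e_KO library: 5 in the T cell receptor alpha stretch and the Scpep1os and Il12b peaks. Of these 7, 5 were called by limma-trend, against 0.0129% of all tested peaks, but they were picked on the same reads that the test used. The converse held at 3 peaks, near Fam71b, near the tetraspanin gene Tspan1 (15, 10 and 11 reads in Stat6_KO and 2, 3 and 3 in Il21e_KO) and near Add2, a gene of the membrane skeleton (10, 11 and 11 reads in Stat6_KO and 0, 3 and 3 in Il21e_KO). Of these 3, the Fam71b peak alone had enough reads to be tested with all 6 libraries. It was not called by limma-trend there but passed in the other fits given for it above. Without Il21e_KO 1 the Tspan1 and Add2 peaks were tested by limma-trend and did not pass (1.52, FDR 0.313, and 1.39, FDR 0.580). The limits of 3 and 10 reads were not scaled to depth, and Il21e_KO 1 held the fewest reads in peaks. The Tspan1 and Add2 peaks had 8 to 10 and 4 to 11 reads in WT.

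Without Il21e_KO 1, 49982 peaks were tested and 26 passed (0.052%), 18 lower (0.036%) and 8 higher (0.016%) in Stat6_KO, and all 6 calls named above were among them. At an unadjusted p under 0.01 there were 661 peaks (1.32%). Weighting the libraries in place of leaving one out gave 31 calls (0.0667%). Of the 26, 12 lay in the 5 windows described above, which held 457 of the 46460 peaks tested with all 6 libraries. Those windows were picked for low p in a fit that shares these libraries, so the 12 are a description. Intergenic were 18 of the 26, and 16845 of the 49982 peaks tested without Il21e_KO 1. Genes outside the naming rule, chosen after their values were seen, were as follows. A peak 4593 bases from 4930597A21Rik on chromosome 11 held 32, 26 and 32 reads in Stat6_KO, against 2, 7 and 14 in Il21e_KO and 10, 9 and 13 in WT (1.43, FDR 9.89e-05). An intron 3 peak of the kinase gene Camk2b held 72, 51 and 52 reads in Stat6_KO and 52, 94 and 96 in Il21e_KO (-0.71, FDR 0.00505). The TSS peak of the folate enzyme gene Aldh1l1, the single promoter among the 26, held 18, 13 and 14 reads in Stat6_KO, against 13, 28 and 36 in Il21e_KO and 27, 27 and 22 in WT (-1.02, FDR 0.0315). With Il21e_KO 1 set beside the others, the genotypes overlapped at 4 of the 26; an intron 6 peak of Letm1, for instance, held 7, 10 and 3 reads in Stat6_KO and 6, 32 and 19 in Il21e_KO (-1.77, FDR 0.00268). The part of the left-out library in these calls was not tested beyond this.

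The genome-wide level differed by the kind of site, and that difference followed Il21e_KO 1. Over all tested peaks the median log2 fold change was 0.03. It was -0.12 over 11833 TSS peaks, 0.08 over 15431 intergenic peaks and 0.10 over 10885 intron peaks. Set against Il21e_KO 1 alone, the Stat6_KO mean differed at TSS peaks by a median of -0.39, while the medians against Il21e_KO 2 and Il21e_KO 3 were -0.01 and -0.02. Without Il21e_KO 1 the medians were -0.01 at TSS peaks, -0.01 at intergenic peaks and 0.01 at introns.

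**Figure D5:**
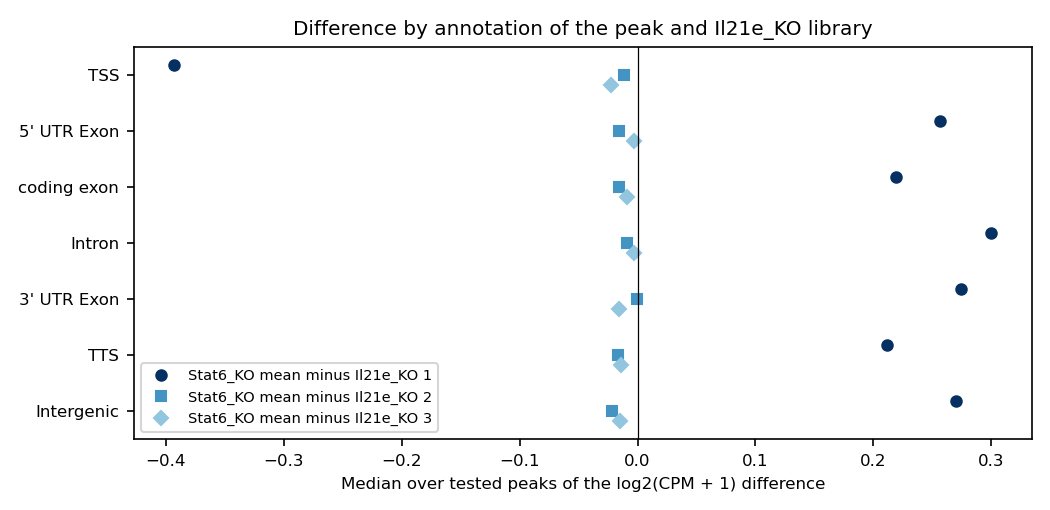
Median difference in log2(CPM + 1) between the Stat6_KO mean and each Il21e_KO library (x axis) over the tested peaks of each annotation class (y axis). Against Il21e_KO 2 and 3 every class lies near 0, and against Il21e_KO 1 TSS peaks lie at -0.39 and all other classes above 0.2.

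No peak of the signalling genes of either cytokine passed by limma-trend with all 6 libraries. In the list of IL-4 and IL-13 signalling genes, 15 of 17 genes had a tested peak, Il4 and Il13 having none listed, and 0 of 86 peaks passed in either direction (median log2 fold change 0.05, against 0.03 over all tested peaks). Without Il21e_KO 1, 1 peak of this list passed, the Stat6 exon 16 peak described above, which also passed with weighted libraries. At an unadjusted p under 0.05 there were 5 of the 86, 3 higher and 2 lower in Stat6_KO, set against 3.89% of all peaks. The IL-4 receptor promoter, Il4ra, held 38, 30 and 38 reads in Stat6_KO and 33, 32 and 42 in Il21e_KO (-0.24 ± 0.22). The promoters of its partner chains stood at -0.01 ± 0.21 (Il2rg) and 0.26 ± 0.60 (Il13ra1), and those of the kinases at 0.00 ± 0.20 (Jak1), -0.09 ± 0.22 (Jak3) and -0.16 ± 0.22 (Tyk2).

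Among the feedback inhibitors, which STATs switch on, the Socs3 promoter (chr11:117830031-117831836, mm9), whose upstream sequence with its STAT palindrome is printed above, held 63, 63 and 62 reads in Stat6_KO, against 87, 68 and 77 in Il21e_KO and 82, 50 and 55 in WT. The genotypes did not overlap, at 36.9 ± 1.07 CPM in Stat6_KO and 56.2 ± 23.2 in Il21e_KO (SD, n = 3 each; -0.52 ± 0.23, limma-trend FDR 0.862). Without Il21e_KO 1, which stood at 82.9 CPM, the difference was -0.21 (FDR 0.928). Socs1 (-0.47 ± 0.26, and -0.11 without Il21e_KO 1) and Cish (-0.17 ± 0.17) overlapped. In the IL-21 list, all 11 genes had a listed and a tested peak and 0 of 100 peaks passed (median 0.02), with 8 at an unadjusted p under 0.05, 4 higher and 4 lower in Stat6_KO, set against 3.89% of all peaks. Its receptor promoter, Il21r, stood at 0.05 ± 0.22, and that of its main transducer Stat3 at -0.31 ± 0.20 (-0.14 without Il21e_KO 1). The Stat5b promoter, a member outside the naming rule, held 16, 18 and 22 reads in Stat6_KO and 23, 23 and 34 in Il21e_KO (-0.69 ± 0.23), whereas an exon 2 peak of the neighbouring Stat5a, likewise outside the rule, held 20, 15 and 15 reads in Stat6_KO and 5, 10 and 9 in Il21e_KO (0.76 ± 0.29).

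Helper T cell programmes gave no call. Of the 32 genes fixed for description, 0 passed by limma-trend and 2 had p under 0.05 (Ahr and Socs3). The genotypes did not overlap at 4 of the 32, all lower in Stat6_KO: Ahr, Socs3, Maf (-0.31 ± 0.15) and Batf (-0.25 ± 0.19). This is near the share of 11% over all tested peaks, of which 4.7% were lower and 6.35% higher. A TSS peak stood for 30 of the 32 genes, and the median of all TSS peaks was itself -0.12 with all 6 libraries and -0.01 without Il21e_KO 1. Gata3, the regulator of the Th2 fate, held 28, 24 and 19 reads at its promoter in Stat6_KO and 15, 21 and 32 in Il21e_KO (-0.11 ± 0.21), so the libraries overlapped widely. The follicular genes Bcl6 (-0.18 ± 0.22), Prdm1, which opposes Bcl6 (-0.05 ± 0.22), and Cxcr5 (-0.06 ± 0.20) did not pass, nor did the Th1 regulator Tbx21 (-0.00 ± 0.21) or a Foxp3 peak in exon 4 (0.01 ± 0.29), from the gene that defines regulatory T cells. Promoters that mark naive and circulating cells stood at 0.07 ± 0.13 (Tcf7), 0.36 ± 0.27 (Lef1), 0.03 ± 0.26 (Il7r), -0.42 ± 0.29 (Ccr7), -0.64 ± 0.31 (Klf2) and -0.33 ± 0.22 (Foxo1), and that of the activation marker Cd44 at -0.01 ± 0.18. Without Il21e_KO 1 the larger values were closer to 0, at -0.05 (Ccr7), -0.21 (Klf2), -0.10 (Foxo1), 0.18 (Lef1), -0.18 (Maf) and -0.13 (Batf). Several of the values near 0 change sign with the scaling or with 1 library left out. The lists had medians of 0.09 (Th2, 62 peaks), 0.08 (follicular helper, 175), 0.04 (Th1, 78), 0.16 (Th17, 51), 0.03 (regulatory, 72), -0.03 (naive and quiescent, 464), -0.05 (early T cell receptor response, 194), 0.02 (memory and effector, 81) and -0.07 (interferon response, 37), with 0 called in each by limma-trend, with or without Il21e_KO 1. Without Il21e_KO 1 the medians were 0.01 (Th2), 0.01 (follicular helper), -0.04 (Th1), 0.01 (Th17), -0.05 (regulatory), -0.02 (naive and quiescent), -0.02 (early T cell receptor response), 0.00 (memory and effector) and -0.05 (interferon response). Ubiquitous genes had a median of -0.02 over 56 peaks, and 0.03 without Il21e_KO 1.

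The labelled cell type was checked against its markers. All 15 T cell identity genes, among them Cd3e, Cd4 and Lck, had a tested TSS peak, with a median promoter level of 19.8 CPM per kb in Stat6_KO and 25.5 in Il21e_KO. Of 12 B cell genes, 3 had a tested TSS peak, and the median promoter level was 8.28 CPM per kb in Stat6_KO and 9.08 in Il21e_KO. Of 10 erythroid and platelet genes 0 had one, of 17 myeloid genes 5, of 9 NK cell genes 4 and of 5 CD8 T cell genes 3. Where a promoter peak of these other lists was listed, its median level in CPM per kb was 27.2 in Stat6_KO and 28.6 in Il21e_KO for the CD8 T cell list, 19.0 in Stat6_KO and 16.6 in Il21e_KO for the myeloid list, 16.9 in Stat6_KO and 15.7 in Il21e_KO for the NK cell list, and 4.65 in Stat6_KO and 3.96 in Il21e_KO for the erythroid and platelet list. The level of the T cell promoters thus did not set them apart from the CD8 and myeloid promoters that were listed, while the share of genes with a tested promoter peak was highest for the T cell list among these cell type lists. Summed over all listed peaks of the B cell genes, the level was 378 to 419 CPM in Stat6_KO, 239 to 392 in Il21e_KO and 313 to 428 in WT, and the part of other cells in the differences above was not tested. In the T cell identity list, 0 of 147 peaks passed with all 6 libraries (median -0.05). At an unadjusted p under 0.05 there were 11 of the 147, 6 higher and 5 lower in Stat6_KO, set against 3.89% of all peaks. Without Il21e_KO 1, 1 peak of this list passed by limma-trend, higher in Stat6_KO (median of the list -0.01).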

How the data were processed

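ATAC-seq of 9 libraries was deposited as 1 table of 115727 peaks on mm9; 6 libraries were compared here. Per the submitters' processing notes the tools were Bowtie 1.3.0, MACS2 2.0 and HOMER; their settings, and whether peaks were called on pooled samples, are not given in the sources used here. The deposited values are CPM, scaled by the authors to reads in listed peaks. Headers of the gene columns do not sit over their contents, so columns were read by what they hold, and intergenic peaks were assigned here to the nearest listed TSS.

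In every library 100% of values were whole multiples of 1 step, within 0.01 read, and the step was taken as 1 read (a count of 0 allows up to 3 reads, or 1.66 to 2.86 CPM). Peaks were filtered by filterByExpr (minimum count 10, minimum total 15) on these reads and tested on log2(CPM + 1) by limma-trend of limma 3.58.1 in R 4.3.3, without a block, with Benjamini-Hochberg adjustment over all tested peaks at 0.05. This understates fold changes of low peaks. EdgeR 4.0.16 on the recovered reads called 11 peaks; DESeq2 1.42.0 and limma-voom were further alternatives. Ratios of summed reads carry exact 95% Clopper-Pearson intervals, which cover counting error only. Library measures were compared by exact permutation tests (scipy 1.17.1), and the fits were tested on simulated data.

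Named peaks are all those past the threshold, the smallest p to fill 10 in each direction (1 peak per gene, without predicted or unnamed genes), and the tested peak nearest the TSS of 32 genes. The members, lists and rule were chosen with earlier results of these data known. Promoter sequences and the order of genes around the T cell receptor alpha segments come from RefSeq on GRCm38.p6; mm9 coordinates were not converted. Some genes are not reported here.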

Additional observations from a re-analysis of the deposited data

How the results depend on the processing

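The count of 6 calls stayed within 1.5 times with TMM factors, a pseudocount of 5, a mean of at least 10 CPM, limma-voom and all 9 libraries in 1 fit (4 to 9 calls). It was 10 with cyclic loess, 0 with a pseudocount of 0.25, 14 without a filter, 11 with edgeR, 10 with DESeq2 and 31 with array weights, and 0 to 26 when 1 library was left out (26 without Il21e_KO 1, 0 without Il21e_KO 2 or 3). All 6 calls were among those of each of these settings that made 6 or more, except limma-voom, which kept 5. Without a filter the median was 0.13, taken over 115725 peaks in place of 46460. The log2 fold changes of single peaks did not change with the filter, for instance -3.16 at the first Agr2 peak and 3.87 at the Fam71b peak in both fits. Of the locus peaks 0 were called, 1 with array weights, and 0 to 1 with 1 library left out. The replicate number as a block gave 5 calls. Same-numbered libraries did not deviate together (correlations of -0.19, -0.10 and -0.06), and not every library correlated best with its own number. Deviations were taken from the mean of each genotype, which the outlying Il21e_KO 1 pulls in Il21e_KO. This check therefore cannot decide whether the numbers pair the libraries, and the block result is given here alone. The 9 libraries kept 3 of the 6 calls. Causes were not tested.

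All 60 reversals concerned fixed genes that did not pass in any of these fits. With cyclic loess the log2 fold changes were 0.069 (Stat6), 0.094 (Il2rg), -0.12 (Il13ra1), 0.018 (Jak3), -0.0034 (Il21r), 0.028 (Prdm1), -0.048 (Il7r), 0.11 (Tbx21), -0.13 (Foxp3) and 0.10 (Cd44). With array weights they were 0.15 (Il2rg), -0.33 (Il13ra1), 0.098 (Jak3), -0.060 (Il21r), -0.0089 (Il2), 0.079 (Prdm1) and -0.18 (Foxp3). With limma-voom, edgeR and DESeq2 they were -0.094, -0.16 and -0.097 for Il13ra1, -0.0030, -0.0013 and -0.029 for Jak1, -0.014, -0.0082 and -0.0040 for Il21r, and -0.10, -0.067 and -0.060 for Foxp3. With TMM they were -0.023 (Jak1) and -0.014 (Foxp3). With 1 library left out the ranges were -0.12 to 0.17 (Il2rg), -0.46 to 0.71 (Il13ra1), -0.13 to 0.13 (Jak1), -0.25 to 0.11 (Jak3), -0.21 to 0.0027 (Gata3), -0.092 to 0.19 (Il21r), -0.026 to 0.27 (Il2), -0.34 to 0.028 (Bcl6), -0.20 to 0.11 (Prdm1), -0.14 to 0.0033 (Cxcr5), -0.14 to 0.24 (Il7r), -0.22 to 0.14 (Tbx21), -0.23 to 0.22 (Foxp3) and -0.12 to 0.089 (Cd44).

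Of 1414 values under alternatives, 1265 kept direction and side of the threshold, 25 were lost calls and 25 were new ones. Depth limits the peaks with few reads, such as those of Il21.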

Other observations

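Within-genotype differences were seen at a pair of peaks, picked for at least 20 reads in 1 Stat6_KO library and at most 1 in another. An intergenic peak 97415 bases from Lrrc4, a gene of synaptic adhesion (chr6:28879163-28879867), held 14, 37 and 1 reads in Stat6_KO, 0, 34 and 35 in Il21e_KO, and 0, 28 and 1 in WT. Each genotype thus had at least 1 library with at most 1 read there and at least 1 with 28 or more. An intron 3 peak of the calpain gene Capn11 (chr17:45781207-45781799) held 22, 4 and 0 reads in Stat6_KO, 6, 23 and 17 in Il21e_KO, and 3, 2 and 2 in WT.

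By the same rule Il21e_KO had 94 such peaks with its 3 libraries and 0 without Il21e_KO 1. The Lrrc4 peak passed in the comparison without Il21e_KO 1 (-1.63, FDR 0.0456) and stood at -0.16 ± 1.10 (FDR 0.980) with all 6 libraries.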
